A study of Danio rerio with 6 samples.

Results

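The genes described are the DEAD-box and DEAH-box RNA helicases of the zebrafish larval fin fold, the thin skin fold around the tail that regrows after it is cut. Members were chosen by name: 48 of the 32266 rows of the deposited count table have a gene name that starts with ddx or dhx and a number, and the 47 with at least 15 counts summed over the 6 libraries were kept. The row left out, named ddx41 but si:ch1073-75o15.3 in the gene name table, had 3 counts. The member closest to the limit, ddx4, had 16. RNA was sequenced from fin folds of Danio rerio larvae 3 days old, with 3 libraries from uncut folds and 3 from folds taken 4 h after amputation. The descriptions of both groups carry the word DMSO, a solvent, and neither a drug, a strain nor a genotype is named in the labels, so the groups differ by the cut as far as the labels tell. The labels do not say how many larvae made a library or whether each replicate had its own larvae. The p-values below therefore speak of the spread among the 6 libraries alone, and that spread may be technical.

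RNA helicases of these families use ATP to open short RNA duplexes or to strip proteins from RNA, and they are named after a short stretch of amino acids, Asp-Glu-Ala-Asp or Asp-Glu-Ala-His, in the part that binds ATP. DEAD-box proteins usually pry apart a short duplex locally, while DEAH-box proteins walk along a strand and are often switched on by partner proteins with a G-patch. Different members work at different steps in the life of an RNA: the making of ribosomes in the nucleolus, splicing, export through the nuclear pore, the start of translation, decay, and the sensing of viral RNA. Many roles given below were worked out in budding yeast or human cells, and the yeast protein is named where the role comes from yeast.

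The name pattern does not match the family exactly. The row ddx26b is INTS6L in the gene name table, a subunit of the Integrator complex and not a helicase, and ddx11 is an iron-sulfur DNA helicase of sister chromatid cohesion. The pattern is in lower case, so it misses DDX17, DHX29, DHX30 and DHX35, which the table writes in capitals. Rows of the family under other names are missed too. They include zgc:193690, which the gene name table calls ddx19a, and CABZ01072952.1, whose human ortholog in the deposited table is DDX41. The last had 2850 counts in all. Values of these 6 further rows are given where they belong, outside the counts of members. The eIF4A genes, whose products are also DEAD-box proteins, are not among the 6. They are given with the helicases under other names. The rows ddx3a and ddx3b are ddx3xa and ddx3xb in the gene name table.

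The libraries held 11216130 to 23019556 counts. The first principal component, with 70.1% of the variance, parted the groups, and on the second, with 12.7%, the library of uncut replicate 1 lay away from the rest. Markers of the fin fold were present: the summed level of 11 mesenchyme and actinotrichia markers was 150718 to 163241 CPM (counts scaled to a common library size by TMM, a scaling that sets the bulk of genes level between libraries) in uncut folds and 68988 to 78593 CPM after amputation. The 14 epidermis markers summed to 60561 to 77709 CPM and 44891 to 54174 CPM. Of these lists 10 of 11 tested mesenchyme markers and 8 of 14 epidermis markers were called lower, where 19.6% of all tested genes were. Muscle markers were lower in 7 of 9 tested, with a sum of 1433.5 to 1844.9 CPM uncut and 1154.6 to 1270.4 CPM after amputation. Neuron markers were lower in 2 of 8, near the share of all tested genes, with sums of 40.7 to 45.7 CPM and 38.6 to 44.4 CPM. The median log2 fold change of the neuron list was 0.06. The part of all these cells in the helicase values was not tested.

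Most of the member genes were higher 4 h after amputation, and no member was called lower. Outside the name pattern, the DEAD-box gene DDX17 was called lower, at -0.69 (edgeR adjusted p = 3e-05). Of the 47 members, 46 had enough counts to be tested and 35 rose, a share of 76.1%, in edgeR's quasi-likelihood test at a Benjamini-Hochberg adjusted p under 0.05 over all 17883 tested genes. Across all tested genes 20.8% were called higher, 19.6% lower and 40.4% in either direction. Of the members 0 were called lower by edgeR, by DESeq2 and in the authors' deposited table, and 0 were lower at an unadjusted p under 0.05. The largest rises were in the ribosome assembly genes ddx24 and dhx37 and the mRNA export gene ddx19, each by at least 1 on the log2 scale, while ddx21, ddx6 and ddx39b were among the 11 that did not pass.

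The rises were moderate in size and alike between libraries. The median log2 fold change, amputated over uncut, was 0.61 over the 46 tested members and 0.0034 over all tested genes. Of the 46 tested members 3 rose by at least 1 on the log2 scale, where 4.53% of all tested genes were called higher by that much. Without uncut replicate 1, which lay away from the rest, 36 members rose and the median was 0.61. The 35 rises ran from 0.27 to 1.195 on the log2 scale. In 37 of the 46 members every amputated library was above every uncut library, a share of 80.4% where 26.9% of all tested genes did this. The median standard error was 0.10 for the members and 0.14 for all tested genes, so the members were measured more precisely than most genes. All 46 tested members were above the count filter in all 6 libraries, so none entered the test through its higher group alone.

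Together the 47 members took 2704, 2866.3 and 2563.7 CPM in the uncut libraries, in order of replicate number as in all such lists below, and 4154.5, 4312.1 and 3973.2 CPM in the amputated libraries. The amputated libraries were all above the uncut ones, and the ratio of the group means was 1.53. Without ddx5 the ratio was also 1.53. As a share of all counts, with no scaling, the members held 0.235% to 0.268% in uncut and 0.431% to 0.482% in amputated libraries. In whole folds, more cells of a type with high helicase levels and more RNA per cell cannot be told apart. Of 12 tested neutrophil markers 12 were called higher, where 20.8% of all tested genes were. The 14 in the list summed to 117 to 139 CPM uncut and 947 to 1431 CPM after amputation, with no marker at 0 in all libraries. The list includes mmp9, a gelatinase gene also active in wounded epidermis, at 39.8 ± 2.26 CPM uncut and 994 ± 209.5 CPM after amputation (SD, n = 3 each). Of 11 tested macrophage markers 10 were higher and 1, mpeg1.2, was lower, and that list of 14 summed to 78.1 to 96.9 CPM and 109.7 to 127 CPM, again with no marker at 0 in all libraries. The part of these cells in the helicase values was not tested.

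**Figure D1:**
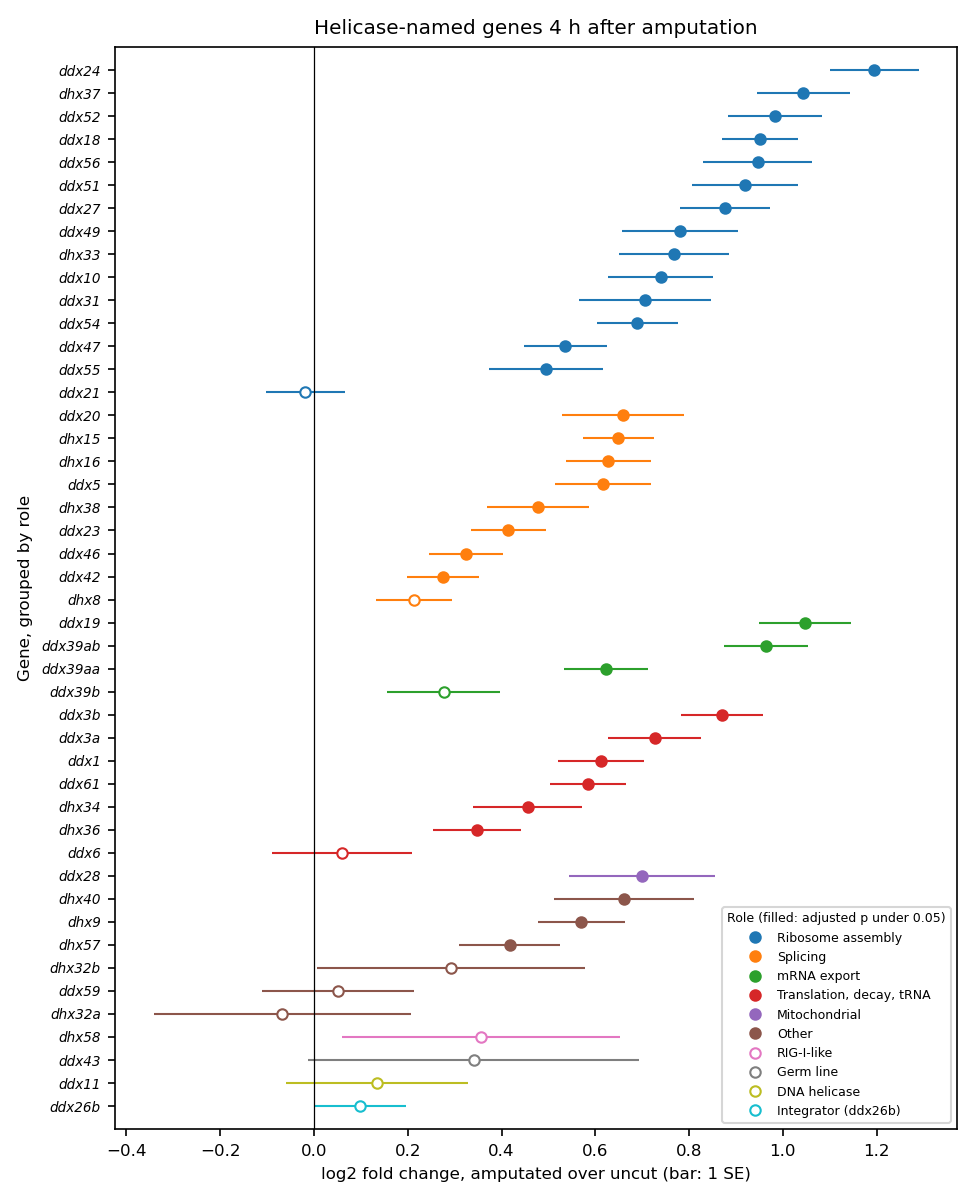
Log2 fold change, amputated over uncut, of the 46 tested genes with helicase names (points, bars are 1 SE), grouped and coloured by role, with filled points for an adjusted p under 0.05. The 35 filled points all lie right of 0, between 0.27 and 1.195, and ddx21 is the open point at the foot of the ribosome assembly group.

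Helicases of ribosome assembly came first in number. These nucleolar proteins remodel the precursor of ribosomal RNA, release the small nucleolar RNAs that guide its cleavage, and act on the precursors of both subunits. Each member was counted under a single role, so dhx15, which also works in ribosome assembly, is counted with splicing. Of the 15 tested members counted here 14 rose, where 20.8% of all tested genes were called higher. The median log2 fold change over the 15 was 0.78.

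Among helicases of the large subunit, ddx24 (yeast Mak5; chromosome 17, 53209720 to 53217755) was at 27.9, 28.2 and 23.9 CPM uncut and 63, 64.5 and 56.9 CPM after amputation. The amputated libraries were all more than 2 times the highest uncut value. Its log2 fold change was 1.195 ± 0.09 (SE), the largest of all members, with an edgeR adjusted p of 2.7e-06. In turn ddx18 (yeast Has1), which acts on early precursors of both subunits, was at 48.1, 47.7 and 43.3 CPM uncut and 90.4, 93 and 86.3 CPM after amputation, again with no overlap. It rose by 0.95 ± 0.08 (SE), with an edgeR adjusted p of 4.2e-06. For ddx27 (yeast Drs1) the values were 34, 32.2 and 27.3 CPM and 55.5, 61 and 56 CPM, a rise of 0.88 ± 0.10 (SE) with an edgeR adjusted p of 2.6e-05. Of the other large-subunit helicases, ddx56 (yeast Dbp9), ddx51 (yeast Dbp6), ddx31 (yeast Dbp7), ddx54 (yeast Dbp10) and ddx55 (yeast Spb4) rose by 0.95, 0.92, 0.71, 0.69 and 0.49 on the log2 scale, and no group overlapped in any of them.

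Helicases of the small subunit rose too. The DEAH-box gene dhx37 (yeast Dhr1), whose product pulls the U3 small nucleolar RNA off the small-subunit precursor, was at 25.1, 21.8 and 23.3 CPM uncut and 43.4, 52.3 and 48.8 CPM after amputation. It rose by 1.04 ± 0.10 (SE), with an edgeR adjusted p of 9.1e-06. Likewise ddx52 (yeast Rok1) stood at 13.6, 14.1 and 13.4 CPM and 25.1, 28.6 and 27.6 CPM, a rise of 0.98 ± 0.10 (SE) with an edgeR adjusted p of 1.5e-05. Its uncut values lay within 1 CPM of each other, and each amputated library was above them all. The genes ddx10 (yeast Dbp4), ddx49 (yeast Dbp8) and ddx47 (yeast Rrp3) rose by 0.74, 0.78 and 0.54. The nucleolar gene dhx33, which in mammals acts in the transcription of ribosomal RNA genes, rose by 0.77, with 11.7 ± 0.947 CPM uncut and 19.9 ± 1.86 CPM after amputation (SD, n = 3 each).

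The exception in this group was ddx21 (ENSDARG00000063626; chromosome 13, 189374 to 199790), a nucleolar helicase that in human cells acts in both the transcription and the processing of ribosomal RNA. It was at 300.1, 257 and 264 CPM in the uncut libraries and at 281, 269.7 and 260.3 CPM in the amputated libraries, and the groups overlapped. The log2 fold change was -0.02 ± 0.08 (SE), with an edgeR adjusted p of 0.88, and the 95% interval of the fold was 0.881 to 1.11. That interval lies below the 1.41-fold of ddx55, the smallest rise among the other 14. With libraries scaled by their totals alone ddx21 was at 0.24 and passed (edgeR adjusted p = 0.0232), close to the 0.26 by which that scaling moved the median of all tested genes. Over the 13 alternative fits its adjusted p ran from 0.0232 to 0.961. The deposited table gives DDX21 as its human ortholog and DDX50 as another possibility.

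**Figure D2:**
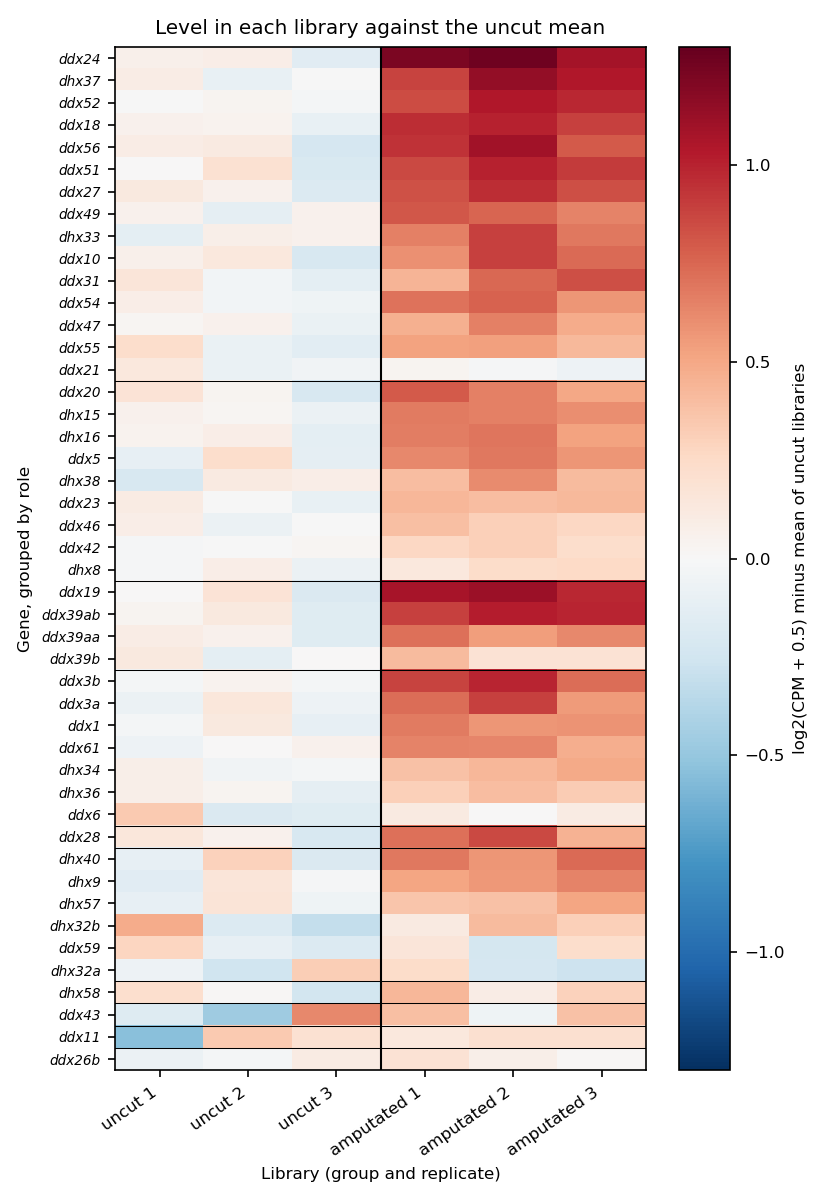
Level of each of the 46 tested members in each library, as log2(CPM + 0.5) minus the mean of the 3 uncut libraries, with roles parted by lines in the same order as in the plot of fold changes. The amputated columns are red in most rows, most deeply for ddx24, and pale for ddx21, ddx6 and the rows at the foot.

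Helicases with roles in splicing were mostly higher as well. Those of the spliceosome each drive a step: Prp5 and Prp28 let the small nuclear ribonucleoproteins dock and exchange, Prp2 and Prp16 drive the catalytic steps, and Prp22 and Prp43 free the mRNA and take the machine apart. The 9 tested members of the splicing group also take in ddx5 and the SMN complex gene ddx20. Of the 9 members 8 rose, where 20.8% of all tested genes were called higher, and the median log2 fold change was 0.48. In all 9 the amputated libraries lay above the uncut ones, where 26.9% of all tested genes did this.

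The gene dhx15 (yeast Prp43), which works both in taking apart the spliceosome and in ribosome assembly, was at 107, 105 and 97.7 CPM uncut and 165, 163 and 157 CPM after amputation. It rose by 0.65 ± 0.08 (SE), with an edgeR adjusted p of 3.9e-05. The Prp2 gene dhx16 was at 32.2, 33.2 and 28.7 CPM and 49.95, 50.9 and 45.1 CPM, a rise of 0.63 ± 0.09 (SE) with an edgeR adjusted p of 1.9e-04. Smaller rises were found for dhx38 (Prp16; 0.48), ddx23 (Prp28; 0.41), ddx46 (Prp5; 0.32) and ddx42, a protein of the U2 particle (0.27). For ddx23 the values were 67.5, 62.1 and 58.2 CPM and 84.3, 82.5 and 83.9 CPM, with an edgeR adjusted p of 0.00147. The call of ddx42 was lost without amputated replicate 2 (edgeR adjusted p = 0.0502), and its adjusted p ran from 2.3e-04 to 0.0502 over the alternatives.

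The Prp22 gene dhx8 was at 58.2, 62.5 and 55.9 CPM uncut and 65, 69.6 and 70.4 CPM after amputation. These groups did not overlap either, but the log2 fold change of 0.21 ± 0.08 (SE) missed the threshold, with an edgeR adjusted p of 0.0535. It did pass when replicate number was fitted as a block (edgeR adjusted p = 0.0382), with genes of at least 5 CPM (0.0404), with library totals alone (9.2e-04) and in the authors' deposited table (0.0283), and its adjusted p ran from 9.2e-04 to 0.165 over the alternatives. The gene ddx20 encodes Gemin3 of the SMN complex, which loads Sm proteins onto spliceosomal RNAs. It was at 13.2, 12 and 10.02 CPM and 20.7, 18.6 and 16.7 CPM and rose by 0.66 ± 0.13 (SE), with an edgeR adjusted p of 0.00165. Outside the pattern, DHX35, of the spliceosome's catalytic complex, rose by 0.59 ± 0.12 (SE), and CABZ01072952.1, the DDX41 ortholog, was at 0.11 ± 0.10 (SE) and did not pass (edgeR adjusted p = 0.413).

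The related genes ddx5 and DDX17 went opposite ways. Their human products, p68 and p72, are close paralogs that act as coregulators of transcription and in alternative splicing. The gene ddx5 (chromosome 3, 25139313 to 25144893) was at 608, 764 and 601 CPM uncut and 1005, 1048 and 974 CPM after amputation. It rose by 0.62 ± 0.10 (SE), with an edgeR adjusted p of 5.0e-04, and uncut replicate 2 was the highest of its group. In contrast DDX17 (ENSDARG00000010873; chromosome 6, 20044729 to 20059475), which the lower-case pattern misses, was at 220.1, 205 and 217 CPM uncut and 138, 136 and 125 CPM after amputation. Every amputated library was below every uncut library, and the log2 fold change was -0.69 ± 0.08 (SE), with an edgeR adjusted p of 3e-05. It was lower in each of the 13 alternative fits, at −0.72 to −0.43, the smallest fall being with library totals alone. It was the only fall called among the 51 tested rows when the further rows are counted with the members. Those rows do not include the eIF4A genes. The coordinates of DDX17, which had 18461 counts in all, overlap those of the tested gene gga1, which had 6063.

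**Figure D3:**
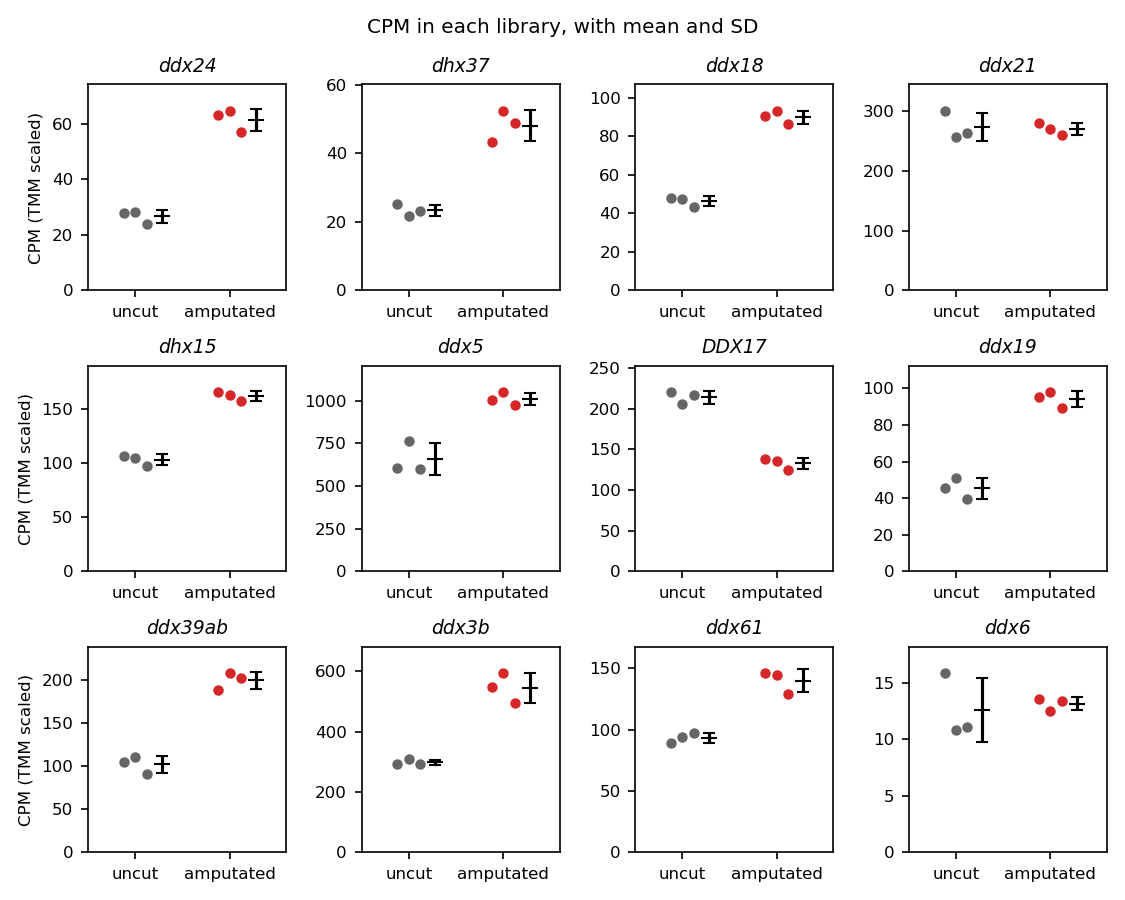
CPM after TMM scaling in each library for 12 helicase genes (grey, uncut; red, amputated; black, mean and SD of 3 libraries), with each axis starting at 0. The groups are apart in 10 panels, with DDX17 lower after amputation and 9 genes higher, and they overlap for ddx21 and ddx6.

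Of 4 tested helicases of mRNA export 3 rose, where 20.8% of all tested genes were called higher. The protein Dbp5, encoded in zebrafish by ddx19, sits at the cytoplasmic face of the nuclear pore and strips export factors from mRNA as it emerges. The gene ddx19 (chromosome 11, 3503971 to 3516194; DDX19A in the gene name table) was at 45.3, 51.1 and 39.5 CPM uncut and 95.1, 97.8 and 89.5 CPM after amputation, with a clear gap between groups. It rose by 1.05 ± 0.10 (SE), with an edgeR adjusted p of 7.9e-06. The paralog zgc:193690 had too few counts to be tested, at 0.0685 ± 0.0698 CPM uncut and 0.332 ± 0.135 CPM after amputation (SD, n = 3 each).

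UAP56, encoded by ddx39b, loads the TREX export complex onto spliced mRNA, and the ddx39a genes encode its near-identical relative URH49. The gene ddx39ab was at 104, 111 and 90.9 CPM and 188, 208 and 203 CPM, a rise of 0.96 ± 0.09 (SE) with an edgeR adjusted p of 7.8e-06. For ddx39aa the values were 96.3, 93.3 and 80.5 CPM and 148, 131 and 138 CPM, a rise of 0.62 ± 0.09 (SE) with an edgeR adjusted p of 1.7e-04. The ddx39b gene itself was at 14.4, 12 and 13.1 CPM and 17.6, 15 and 15.1 CPM. Its groups did not overlap, but at 0.28 ± 0.12 (SE) it did not pass (edgeR adjusted p = 0.0887). It passed without uncut replicate 1 (0.0357) and with library totals alone (0.00268), and its adjusted p ran from 0.00268 to 0.308 over the alternatives. Reads of such close paralogs may be split between them in a way that depends on the read counter used, and no source used here names it.

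Helicases of translation, mRNA decay and tRNA splicing were mostly higher, 6 of 7, where 20.8% of all tested genes were called higher. The Ded1 homologs ddx3a and ddx3b help ribosomes scan structured leaders of mRNA. The gene ddx3b (chromosome 6, 59900573 to 59918191) was at 294, 308 and 293 CPM uncut and 549, 593 and 494 CPM after amputation, and rose by 0.87 ± 0.09 (SE) with an edgeR adjusted p of 1.3e-05. Its paralog ddx3a was at 152, 176 and 153 CPM and 266, 296 and 235 CPM, and rose by 0.73 ± 0.10 (SE) with an edgeR adjusted p of 1.2e-04. In both genes amputated replicate 3 was the lowest of its group and still above every uncut library. Outside the pattern, DHX29, which helps the small subunit scan, rose by 0.50 ± 0.10 (SE).

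The yeast Dhh1 protein and its human homolog DDX6 repress translation and promote decapping in P-bodies. Of their zebrafish relatives, ddx61 was at 89.3, 93.5 and 97 CPM uncut and 146, 145 and 129 CPM after amputation and rose by 0.58 ± 0.08 (SE) (edgeR adjusted p = 1.3e-04). The gene ddx6 was at 15.8, 10.8 and 11.1 CPM and 13.5, 12.4 and 13.4 CPM, the groups overlapped, and at 0.06 ± 0.15 (SE) it did not pass (edgeR adjusted p = 0.779). The 95% interval of its fold was 0.851 to 1.28. Over the 13 alternative fits ddx6 ran from −0.06 to 0.32, and without uncut replicate 1 it was at 0.27 (edgeR adjusted p = 0.0965). The nonsense-mediated decay gene dhx34 rose by 0.46 ± 0.12 (SE), and dhx36, whose product unwinds G-quadruplexes, by 0.35 ± 0.09 (SE). The gene ddx1, which works with the tRNA ligase in tRNA splicing, was at 25.6, 28.3 and 24.1 CPM and 41.7, 38.9 and 39.1 CPM and rose by 0.61 ± 0.09 (SE) (edgeR adjusted p = 2.4e-04).

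The mitochondrial helicase genes ddx28 and DHX30 rose. The gene ddx28, for assembly of the large subunit of the mitochondrial ribosome in human cells, was at 7.51, 7.03 and 5.74 CPM and 11.4, 12.6 and 9.38 CPM, and rose by 0.70 ± 0.15 (SE) with an edgeR adjusted p of 0.00336. Outside the pattern, DHX30, found in mitochondrial RNA granules, was at 6.79, 7.16 and 6.61 CPM and 15.7, 17.3 and 13.7 CPM, a rise of 1.18 ± 0.13 (SE) with an edgeR adjusted p of 3e-05.

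Of 6 members with other or less settled roles, dhx9, dhx40 and dhx57 rose, where 20.8% of all tested genes were called higher. RNA helicase A, encoded by dhx9, binds double-stranded RNA and acts in transcription. It was at 48, 59.7 and 52.9 CPM and 76.3, 78.8 and 83.6 CPM, and rose by 0.57 ± 0.09 (SE) with an edgeR adjusted p of 4.3e-04. The rises were 0.66 ± 0.15 (SE) for dhx40 and 0.42 ± 0.11 (SE) for dhx57. The genes ddx59, dhx32a and dhx32b did not pass, at 0.05, -0.07 and 0.29, and their groups overlapped.

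Members with roles in innate immunity, the germ line and DNA did not pass the test. The gene dhx58 encodes LGP2, a relative of the viral RNA sensor RIG-I, and was at 1.25, 1.02 and 0.778 CPM and 1.53, 1.11 and 1.35 CPM. Its log2 fold change was 0.36 ± 0.30 (SE) (edgeR adjusted p = 0.367), and the 95% interval of the fold was 0.856 to 1.92. The germ-plasm gene ddx4, known as vasa, had 0 to 5 counts per library and was not tested. The related ddx43 was at 0.34 ± 0.35 (SE) with overlapping groups. Of 11 other germ cell genes 2 were tested and neither passed, and their summed level was 4.15 to 5.06 CPM uncut and 4.67 to 5.63 CPM after amputation. The DNA helicase gene ddx11 was at 6, 11.5 and 10.3 CPM and 9.85, 10.4 and 10.4 CPM, where uncut replicate 1 was the lowest of the 6 libraries, and at 0.13 ± 0.19 (SE) it did not pass. Nor did ddx26b, the Integrator gene, at 0.10 ± 0.10 (SE).

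**Figure D4:**
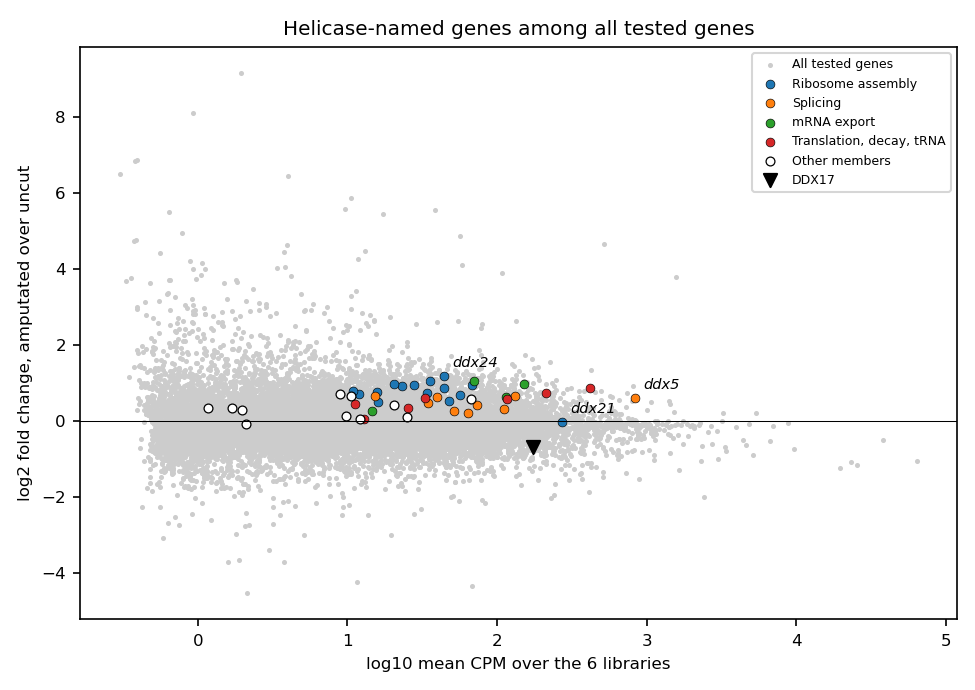
Log2 fold change, amputated over uncut, against the log10 of the mean CPM over 6 libraries for all 17883 tested genes (grey), with members of 4 roles coloured, the others white, and DDX17 as a triangle. Most members lie between 0.27 and 1.195 above the 0 line, ddx21 on it, and DDX17 below it at −0.69.

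Within-library ratios set related genes directly beside each other, since a ratio of counts from 1 library needs no scaling between libraries. The ratio itself also carries the lengths of both genes, so only its difference between groups is compared. Each of 6 pairs was compared by a two-sided exact permutation test, where 3 against 3 libraries cannot give a p below 0.1. The p-values were adjusted over the 6 pairs by Benjamini-Hochberg. The pairs were chosen after values were seen, and any pair with groups apart gives 0.1, so these p-values are no independent test. The log2 ratio of ddx5 over DDX17 was 1.47, 1.90 and 1.47 uncut and 2.87, 2.95 and 2.96 after amputation. The difference was 1.31 ± 0.15 (SE), with an exact permutation p of 0.1 (adjusted 0.12).

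For ddx39ab over ddx39aa the log2 ratio was 0.18 ± 0.07 uncut and 0.52 ± 0.16 after amputation (SD, n = 3 each), a difference of 0.34 ± 0.10 (SE) with groups that did not overlap (exact permutation p = 0.1, adjusted 0.12). For ddx61 over ddx6 it was 2.91 ± 0.36 and 3.41 ± 0.13 (SD, n = 3 each), and the groups did not overlap (difference 0.50 ± 0.22 (SE), exact permutation p = 0.1, adjusted 0.12). The smallest difference was that of ddx3b over ddx3a, at 0.90 ± 0.08 uncut and 1.04 ± 0.04 after amputation (SD, n = 3 each; difference 0.14 ± 0.05 (SE), exact permutation p = 0.1, adjusted 0.12). The groups overlapped for dhx32b over dhx32a (difference 0.47 ± 0.53 (SE), exact permutation p = 0.5, adjusted 0.5).

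**Figure D5:**
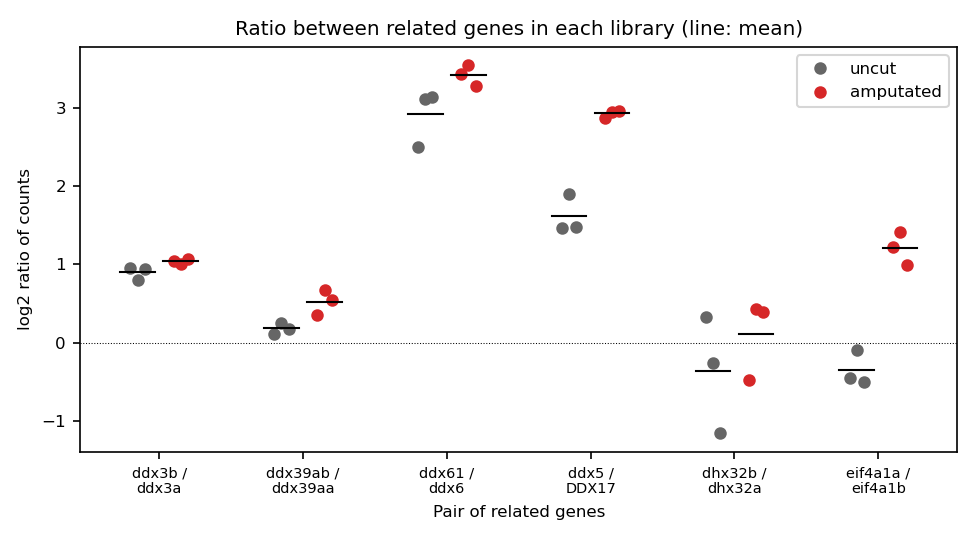
Log2 ratio of the counts of 2 related genes in each library for 6 pairs (grey, uncut; red, amputated; lines are means of 3 libraries). The groups lie apart for ddx5 over DDX17, with means 1.31 apart, and for eif4a1a over eif4a1b, 1.56 apart, and overlap for dhx32b over dhx32a.

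Helicases under other names, among them eIF4A proteins, Upf1-like helicases of another superfamily and a few DNA helicases, gave a mixed picture. Of 24 such genes 22 were tested, and 10 rose and 1 fell, with a median log2 fold change of 0.41 over the list. Of all tested genes 20.8% were called higher and 19.6% lower. DEAD-box proteins of the eIF4A family open the leader of mRNA for the ribosome. The gene eif4a1a was at 248, 261 and 208 CPM uncut and 640.3, 664 and 524 CPM after amputation and rose by 1.35 ± 0.11 (SE) (edgeR adjusted p = 3.6e-06). Its relative eif4a1b was at 338, 279 and 295 CPM and 276, 249 and 264 CPM and did not pass, at -0.21 ± 0.09 (SE) (edgeR adjusted p = 0.0803). The log2 ratio of eif4a1a over eif4a1b was −0.35 ± 0.22 uncut and 1.21 ± 0.21 after amputation (SD, n = 3 each), a difference of 1.56 ± 0.18 (SE; exact permutation p = 0.1, adjusted 0.12). The exon junction gene eif4a3 rose by 0.54 and eif4a2 was at -0.11 and did not pass. The exosome helicase gene mtrex rose by 0.85 ± 0.08 (SE), the spliceosome's Brr2 gene snrnp200 by 0.68 ± 0.08 (SE) and znfx1 by 1.65 ± 0.24 (SE). The 1 that fell was hfm1, a meiotic DNA helicase gene, at -0.90 ± 0.28 (SE).

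Genes for partners that switch helicases on or off were in part higher too. Of 32 tested cofactor genes 21 rose and 3 fell, with a median of 0.44 on the log2 scale. The shares over all tested genes were 20.8% higher and 19.6% lower. The G-patch gene gpatch4 was at 8.89, 10.3 and 10.1 CPM and 26.7, 31 and 25.2 CPM and rose by 1.50 ± 0.12 (SE). The nucleolar gene nom1, which has the MIF4G domain that binds helicases, rose by 1.07 ± 0.11 (SE), and eif4g1a, the scaffold that holds eIF4A on the mRNA cap, by 0.79 ± 0.09 (SE). The 3 that fell were eif4ba, an eIF4A cofactor, at -0.25, and the G-patch genes gpatch8 and rbm5, at -0.50 and -0.47. The related gene eif4bb, in the same list, rose by 0.74 ± 0.09 (SE) (edgeR adjusted p = 3.7e-05).

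Protein complexes around single helicases were set beside them. Beside the counts that follow, 20.8% of all tested genes were called higher. Of 16 tested genes of TREX and mRNA export 10 rose (list median 0.38), among them thoc6 (1.44 ± 0.15 (SE)), thoc1 (0.56) and alyref (0.51), while the main export receptor gene nxf1b was at 0.01 and did not pass. In the SMN complex around Gemin3, 4 of 7 rose (list median 0.40), with smn1 at 0.95 ± 0.13 (SE). The tRNA ligase complex had 4 of 5 higher (list median 0.55), and its ligase gene rtcb rose by 0.77 ± 0.11 (SE). Among decapping and P-body genes, 9 of 14 rose (list median 0.30), with edc3 at 0.55 ± 0.10 (SE), edc4 at 0.52 and lsm1 at 0.92. In RIG-I-like receptor signalling 3 of 9 fell, where 19.6% of all tested genes were called lower, and the others did not pass (list median -0.21). The 3 were mxc (-1.11 ± 0.12 (SE)), irf7 (-0.77) and mavs (-0.51), the adaptor of the RIG-I pathway.

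Some of these counts may hold reads of neighbours. In the deposited coordinates, for which the sources used here name no genome build, 9 of the 46 tested members overlap another tested gene, among them ddx24, ddx3b, ddx47 and ddx54. Another is dhx32a, which had 226 counts in all beside 6586 of its neighbour bccip. The called gene ddx47 had 5452 counts in all, and the larger of its neighbours srebf2 and wbp11 had 32270. For ddx54 the counts were 6455, beside 4179 of the largest row that overlaps it. The neighbours were smaller for ddx24 (1272 beside its 5195) and ddx3b (885 beside its 48841). Of the 37 members that overlap none, 30 rose, where 20.8% of all tested genes were called higher. Outside the pattern, DDX17 overlaps gga1, so its fall and its ratio to ddx5 may hold reads of that gene.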

How the data were processed

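Raw counts per gene, the authors' size-factor normalised values, DESeq2 log2 fold changes and p-values were read from 1 deposited table of 6 libraries (uncut and amputated, 3 each). The submitters' processing notes name TopHat, Cufflinks and DESeq2, with no role or order. No source used here names the read counter, the genome build or the annotation. The TruSeq RNA kit, named in the labels' protocols, does not mark strand, so reads of overlapping genes cannot be told apart by strand. The tests here used the deposited counts. The members, roles and gene lists were chosen with earlier results of these data known, and the paralog pairs and further rows after values were seen.

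Genes were filtered with edgeR 4.0.16 filterByExpr (minimum 10 counts, minimum total 15), scaled by TMM and tested with the quasi-likelihood test in R 4.3.3, with Benjamini-Hochberg adjustment over all 17883 tested genes and calls at an adjusted p under 0.05. SE is the log2 fold change over the root of the F statistic, and levels are CPM. The 95% intervals of the fold are the log2 fold change ± 1.96 SE. They use the normal quantile and not that of the F test, so they are somewhat too narrow. No level was compared between genes, since transcript lengths were not used. Libraries held 11216130 to 23019556 counts, so 1 count stood for 0.0436 to 0.0972 CPM. Every member is accounted for. A rule picked up to 5 called members of lowest adjusted p in each role. It also took up to 2 tested members of highest mean CPM that were not called, and a few members of known interest such as ddx21. Most of these have the CPM of each library above, while dhx34, dhx40, dhx57, ddx59, dhx32a, ddx43 and ddx26b have a log2 fold change without CPM. In each other list the rule named up to 3 called genes of lowest adjusted p and every call against the list's majority. Outside it, DHX29, DHX30, DHX35, CABZ01072952.1, zgc:193690, eif4a1b, eif4a2, eif4a3, eif4bb, znfx1, nxf1b, mmp9 and mpeg1.2 were named after their values were seen. Alternatives were DESeq2 1.42.0, library totals, other filters and thresholds, each library left out and the replicate number as a block. Deviations from the group means correlated at 0.251, 0.211 and 0.156 between same-numbered libraries and at −0.175 to −0.0345 between the others. The labels do not state a pairing of replicates, and no test was run on these correlations. With the replicate number as a block, 4125 genes were called higher and 4016 lower, against 3724 and 3499 in the main fit. The main fit was also run on simulated counts in which a small share of genes was changed, in both directions. That run does not test the scaling where many genes change.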

Additional observations from a re-analysis of the deposited data

How the results depend on the processing

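Of the 35 higher helicase calls 34 held in all 13 alternative fits, the exception being ddx42. Leaving out 1 library at a time gave 34 to 36 higher members, a median log2 fold change of 0.56 to 0.66, 14 higher ribosome assembly members and 7 to 8 splicing members. Over all genes it gave 3011 to 3869 higher and 2732 to 3667 lower calls. With the replicate number as a block 36 members were higher, adding dhx8, and no other member's call changed.

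Scaling by library totals alone gave 6821 higher and 1636 lower genes, a median of 0.87 over the members and 0.26 over all tested genes, and ddx21 at 0.24 in place of -0.02; relative to that shift the members' median stayed near its main value. At an adjusted p under 0.01 there were 2283 lower genes and 33 higher members. With a rise of at least 1 on the log2 scale required, 3 members remained, and with the 6 further rows 1 helicase was lower, DDX17. Scaling by totals alone leaves out the TMM factors, which were 0.893 to 0.935 in uncut and 1.07 to 1.12 in amputated libraries. Why these factors differ between the groups was not tested. The cause of the other changes was not tested either, beyond what each threshold or added row sets by itself. Among members that did not pass, the 95% interval of the fold reached 2.04 for ddx43, 1.92 for dhx58 and 1.81 for dhx32b, so changes up to those sizes lie within it, and ddx4 had too few counts to be tested.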
